A study of Homo sapiens with 3 samples.

Results

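The clustered protocadherin genes lie side by side on chromosome 5 and were taken from the RefSeq table of assembly GRCh38.p14 by symbol, as PCDHA, PCDHB or PCDHG followed by isoform letters or digits. The rule gave 59 of the 59679 genes on the main chromosomes, of which 53 are protein-coding and 6 are pseudogenes. Open chromatin was measured by ATAC-seq, in which the Tn5 transposase cuts accessible DNA and leaves sequencing adapters there, so that open sites collect more tags. The cells were neurons made with the transcription factor NGN2 from the human pluripotent stem cell line KOLF2.1J, established by reprogramming, after 14 days of differentiation. The 3 samples are biological replicates of that single line, form 1 group and share 1 list of peaks, so no value per replicate and no test over replicates was possible. Peaks with the same bounds were counted once, as a region, and each region carries the values of its strongest summit. Of 65234 regions, 32 had that summit between the first and the last member or within 100 kb on either side.

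Protocadherins are adhesion molecules of the neuronal surface. In this cluster each member of the alpha and gamma groups has its own promoter and a large first exon, which is spliced to constant exons shared by the whole group, whereas beta members are single genes without shared exons. A neuron typically uses few of the alternate promoters, and the combination gives it a surface identity used in self-avoidance of its branches. The C-type members, PCDHAC1 and PCDHAC2 at the end of the alpha group and PCDHGC3, PCDHGC4 and PCDHGC5 at the end of the gamma group, are known to be used more uniformly between neurons. CTCF, a protein that anchors chromatin loops together with cohesin, is known to bind a conserved element in most of these promoters and in distant enhancers of the cluster.

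The promoters below show listed starts in sequence, with 1 unlisted C-type start, PCDHGC4, for comparison. They are the 250 bases before the annotated start, on the forward strand of GRCh38.p14 from RefSeq, and capitals mark each CGCT on that strand, the box at the heart of the conserved element. Shown are the alpha and beta members with the most and the fewest tags among those with an entry, the gamma member with a region, and the C-type members with an entry, of which PCDHGC4, the last line, had no region at its start.
PCDHA4 (chr5:140806818-140807067): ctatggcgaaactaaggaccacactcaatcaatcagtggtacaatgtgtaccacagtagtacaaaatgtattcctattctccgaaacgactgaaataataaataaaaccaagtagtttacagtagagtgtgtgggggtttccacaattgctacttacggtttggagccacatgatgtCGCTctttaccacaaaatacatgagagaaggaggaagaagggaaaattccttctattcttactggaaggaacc
PCDHA12 (chr5:140875058-140875307): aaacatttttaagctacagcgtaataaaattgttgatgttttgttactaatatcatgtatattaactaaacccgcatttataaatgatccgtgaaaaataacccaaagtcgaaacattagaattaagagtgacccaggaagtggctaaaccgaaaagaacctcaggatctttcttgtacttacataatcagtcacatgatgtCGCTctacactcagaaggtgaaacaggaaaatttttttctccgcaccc
PCDHB2 (chr5:141094365-141094614): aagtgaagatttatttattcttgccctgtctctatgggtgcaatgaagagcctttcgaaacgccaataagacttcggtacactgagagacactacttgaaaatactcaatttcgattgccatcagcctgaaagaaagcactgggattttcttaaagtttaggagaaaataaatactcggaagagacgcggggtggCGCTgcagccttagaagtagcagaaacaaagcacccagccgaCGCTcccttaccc
PCDHB5 (chr5:141134956-141135205): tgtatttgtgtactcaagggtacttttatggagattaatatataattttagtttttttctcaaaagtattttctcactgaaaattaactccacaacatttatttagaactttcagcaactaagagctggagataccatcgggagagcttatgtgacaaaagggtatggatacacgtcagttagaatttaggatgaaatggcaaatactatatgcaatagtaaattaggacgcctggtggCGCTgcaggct
PCDHGB6 (chr5:141407771-141408020): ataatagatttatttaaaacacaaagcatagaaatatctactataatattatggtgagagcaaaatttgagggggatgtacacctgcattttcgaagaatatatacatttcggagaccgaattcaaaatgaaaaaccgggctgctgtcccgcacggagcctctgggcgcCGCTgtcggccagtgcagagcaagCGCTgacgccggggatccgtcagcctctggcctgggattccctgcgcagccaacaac
PCDHAC1 (chr5:140926049-140926298): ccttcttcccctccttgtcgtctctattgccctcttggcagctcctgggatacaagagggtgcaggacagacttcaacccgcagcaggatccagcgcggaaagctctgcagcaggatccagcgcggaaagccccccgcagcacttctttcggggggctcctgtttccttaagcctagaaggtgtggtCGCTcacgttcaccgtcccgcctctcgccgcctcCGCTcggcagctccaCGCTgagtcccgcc
PCDHAC2 (chr5:140966226-140966475): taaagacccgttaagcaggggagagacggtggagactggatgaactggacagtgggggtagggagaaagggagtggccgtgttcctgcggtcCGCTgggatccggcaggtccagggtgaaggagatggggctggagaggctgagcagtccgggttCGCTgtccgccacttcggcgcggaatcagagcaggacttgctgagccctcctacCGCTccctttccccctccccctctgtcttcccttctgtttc
PCDHGC3 (chr5:141475716-141475965): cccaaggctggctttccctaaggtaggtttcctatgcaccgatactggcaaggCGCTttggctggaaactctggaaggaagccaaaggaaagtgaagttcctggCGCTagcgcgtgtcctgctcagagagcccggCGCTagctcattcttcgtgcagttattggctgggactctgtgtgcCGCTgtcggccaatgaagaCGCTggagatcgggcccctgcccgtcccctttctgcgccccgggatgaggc
PCDHGC4 (chr5:141484780-141485029): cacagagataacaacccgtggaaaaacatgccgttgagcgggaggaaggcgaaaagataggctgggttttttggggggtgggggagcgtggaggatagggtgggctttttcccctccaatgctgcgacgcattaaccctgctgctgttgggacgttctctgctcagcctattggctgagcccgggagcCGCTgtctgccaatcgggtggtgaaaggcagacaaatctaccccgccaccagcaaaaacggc

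The alpha and beta promoters are poor in G and C, and the C-type promoters are rich. In the 300 bases that the table holds for each of 47 coding members, up to 50 bases past the start, GC content had a median of 36% over 11 alpha members, 40.8% over 14 beta members and 41% over 18 gamma A and B members. It was 59 to 66% in the 4 C-type members, against a median of 58.3% over 27305 promoters of all genes. PCDHGB6 had 16 CpG dinucleotides, the most among the gamma A and B members, whose median was 6.5. The unlisted PCDHGB5 and PCDHGB4 were close, with 14 and 13, and the median over all promoters was 13.

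Only a minority of the members had a region at their start. A summit within 1 kb of the start was listed for 12 of the 53 coding members (22.6%, Wilson 95% interval 13.5 to 35.5%), against 72.4% of the 15842 protein-coding genes whose start is in the table. A gene with several starts counted if any of them had a region, and most members have a single start. None was listed for the 6 pseudogenes, and with 3 counts of the total as the limit for a count of 0 their share could be as high as 50%. These intervals describe counts of genes in 1 pooled list, and neighbouring members share sequence and position, so no test was made. In bulk chromatin an open start in few cells and a weakly open start in many cells give the same signal and cannot be told apart. Absence from the list means that no peak passed the authors' threshold, where the weakest entry of the list held 58 tags, and does not show a closed start.

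The groups differed in how many members were listed. Among the alternate alpha members, 2 of 13 had a region at the start (15.4%, interval 4.33 to 42.2%), PCDHA4 and PCDHA12. Among beta members, 6 of 16 had one (37.5%, interval 18.5 to 61.4%), PCDHB1, PCDHB2, PCDHB5, PCDHB16, PCDHB10 and PCDHB11. The order of the alpha and beta groups turned when only regions above the median fold enrichment of all regions were kept (62.8% of all coding genes), with 2 of 16 beta members, PCDHB1 and PCDHB2, and still 2 of 13 alpha members. Among the 19 alternate gamma members it was PCDHGB6 alone (5.26%, interval 0.935 to 24.6%), with 0 of 12 in the gamma A subgroup and 1 of 7 in the gamma B subgroup. The C-type members had 3 of 5 (60%, interval 23.1 to 88.2%), namely PCDHAC1, PCDHAC2 and PCDHGC3, while PCDHGC4 and PCDHGC5 had none. The intervals of the groups overlap, and the difference between groups was not tested.

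**Figure D1:**
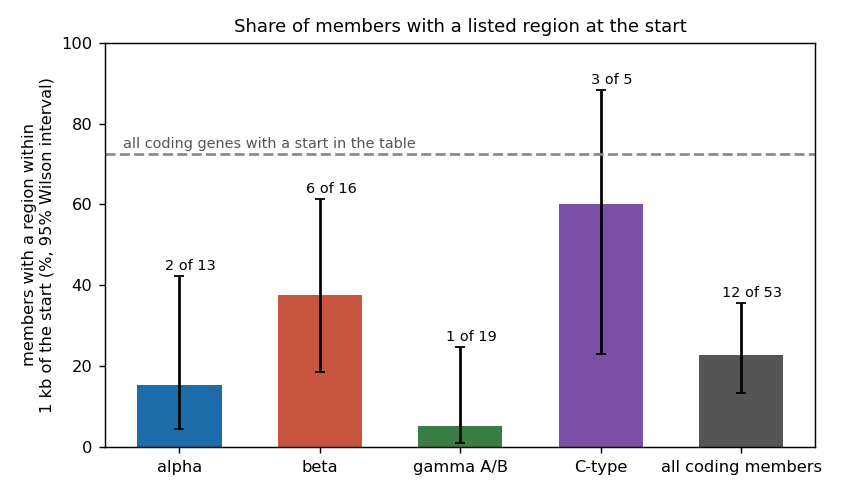
Share of coding members with a region whose strongest summit is within 1 kb of the start (%), by group, with 95% Wilson intervals as bars and the counts above them. The dashed line is the 72.4% of all coding genes with a start in the table, which the intervals of the alpha, beta and gamma groups do not reach.

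Listed members were spread singly or in small sets along the cluster, with long runs of unlisted members between them. The first 3 alpha members, PCDHA1 to PCDHA3, had no region, nor had the 7 members from PCDHA5 to PCDHA11, nor PCDHA13. In the beta group the listed starts came in 4 places, with PCDHB3 and PCDHB4, the 3 members from PCDHB6 to PCDHB8, and PCDHB9 unlisted between them, and the last 4, PCDHB12 to PCDHB15, were also unlisted. The longest run covered the 14 members from PCDHGA1 to PCDHGA9, and 4 more followed from PCDHGA10 to PCDHGA12. The widest gap between neighbouring summits of the cluster, 87.2 kb, reached from the region near TAF7 to PCDHGB6 and took in that gamma run. For the 41 unlisted coding members the nearest summit lay 4.57 to 43.3 kb from the start, so none of them sat just outside the window.

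**Figure D2:**
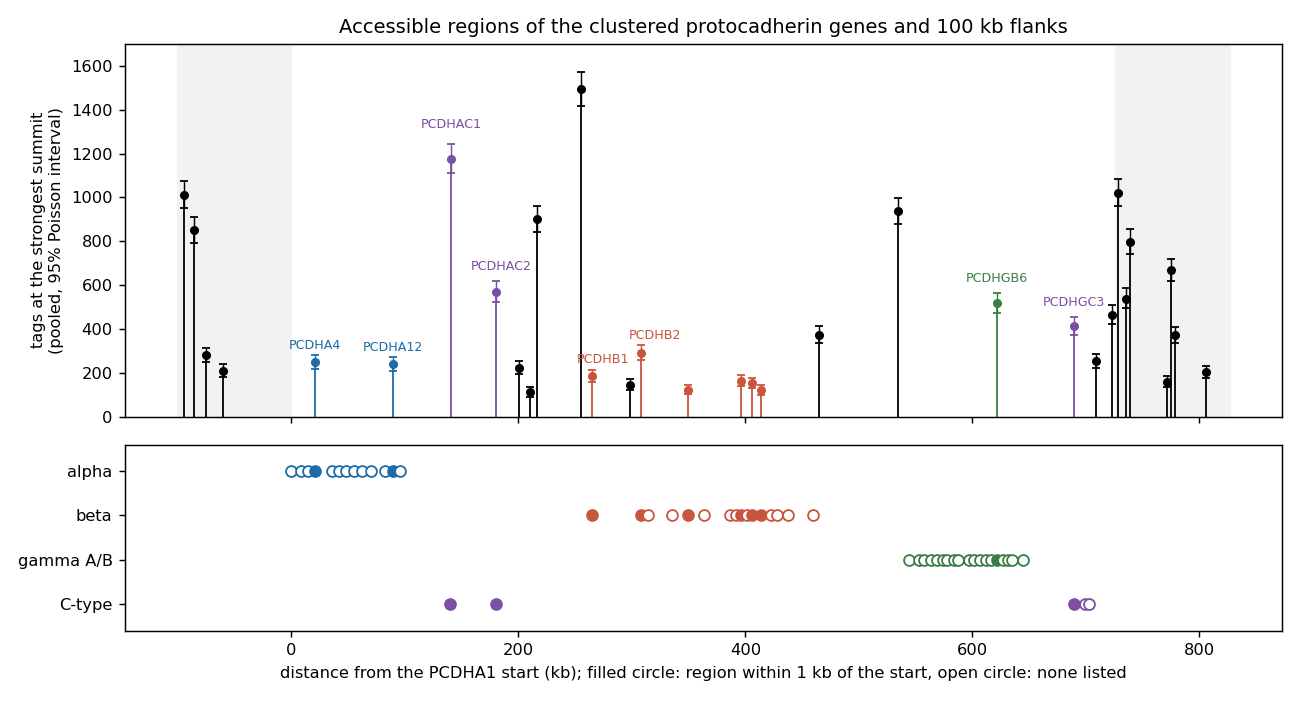
Upper panel, tags at the strongest summit of each of the 32 regions with 95% Poisson intervals, against distance from the PCDHA1 start (kb). Coloured stems are regions at member starts, black stems all others, and grey bands the 100 kb flanks. Lower panel, the start of each coding member, filled where a region was listed. The highest stem, at 255.1 kb, lies between the alpha and beta groups and at no member start.

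How strongly the listed starts were open was read from tags at the summit. Tag counts are for the pooled samples and were recovered from the deposited fold enrichment and p-value, and their intervals are exact Poisson 95% intervals that cover counting error only. PCR copies without molecular identifiers are not independent molecules, and the depth of each replicate is unknown. PCDHAC1 had 1176 tags (1109.7 to 1245) at a fold enrichment of 15.04 over its local background. The other C-type starts were lower, PCDHAC2 at 570 tags (524 to 619) and a fold enrichment of 7.89, and PCDHGC3 at 413 tags (374 to 455) and a fold enrichment of 11.4. The intervals of these 3 starts do not overlap. PCDHGB6, the gamma member, had 518 tags (474 to 565) at a fold enrichment of 12.6. Its interval overlaps that of PCDHAC2.

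Both alpha starts were alike in strength. PCDHA4 had 247 tags (217 to 279.8) and PCDHA12 had 239 (209.7 to 271), at fold enrichments of 8.21 and 7.94. Beta starts ranged from 119 to 290 tags. PCDHB2 was highest with 290 (258 to 325) and a fold enrichment of 9.63, and its interval overlaps those of PCDHA4 and PCDHA12 but of no other beta member. PCDHB1 followed with 184 tags (158 to 213), PCDHB16 with 163 (139 to 190.0) and PCDHB10 with 152 (129 to 178), and these neighbours in the order overlap within counting error. The lowest were PCDHB5 with 122 tags (101 to 146) and PCDHB11 with 119 (98.6 to 142). Fold enrichments of these 5 ran from 3.97 at PCDHB11 to 6.12 at PCDHB1.

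Against other open promoters most of these starts were weak by tag count. The 10318 regions at coding starts had a median of 964 tags and a lower quartile of 540, and 10 of the 12 members were below that quartile. Only PCDHAC1, at percentile 62.1, was above the median. By fold enrichment 9 of 12 were below the median of 10.7, while PCDHAC1, PCDHGB6 and PCDHGC3 stood at percentiles 88.2, 66.8 and 56.4. The 2 measures differ because fold enrichment divides by a background level, which has a floor common to the whole list. That background was at the floor, 29.2 tags, for 8 of the 12 members, all alpha and beta, against a median of 86.5 at coding starts. Among these 8 the fold enrichment follows the tag count and adds no separate information. The share of all regions at coding starts with a background at the floor was not computed. The background was 77.3 tags at PCDHAC1 and 71.4 at PCDHAC2.

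The deposited score, a whole number that ranges from 540 to 1000 in the list and whose scaling is not given in the sources used here, was 1000 for 8 of the 12 starts. The exceptions were all beta members. PCDHB5 had 962, PCDHB10 had 885, PCDHB11 had 663 and PCDHB16 had 570. The score of PCDHB16 was the lowest although its tag count was above those of PCDHB10, PCDHB5 and PCDHB11. The share of all regions with a score of 1000 was not computed, so these counts are not read as a trait of a group. With a score of at least 830 the listed members fall to 10 and the beta count to 4 of 16, with 70.9% over all coding genes. Above the median fold enrichment of all regions, 5.60, 8 members were left against 62.8% of all coding genes. The 12 were the same with windows of 500 bp (68.7% of all coding genes) and 2 kb (74.8%), with any overlap (74%) and with any summit of the region (73.4%). When a region at either end of a gene counted, PCDHB9 made 13, against 69.1%. The region near the end of PCDHB9 is the one at the PCDHB10 start, so it counts for both members and no further region was added.

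**Figure D3:**
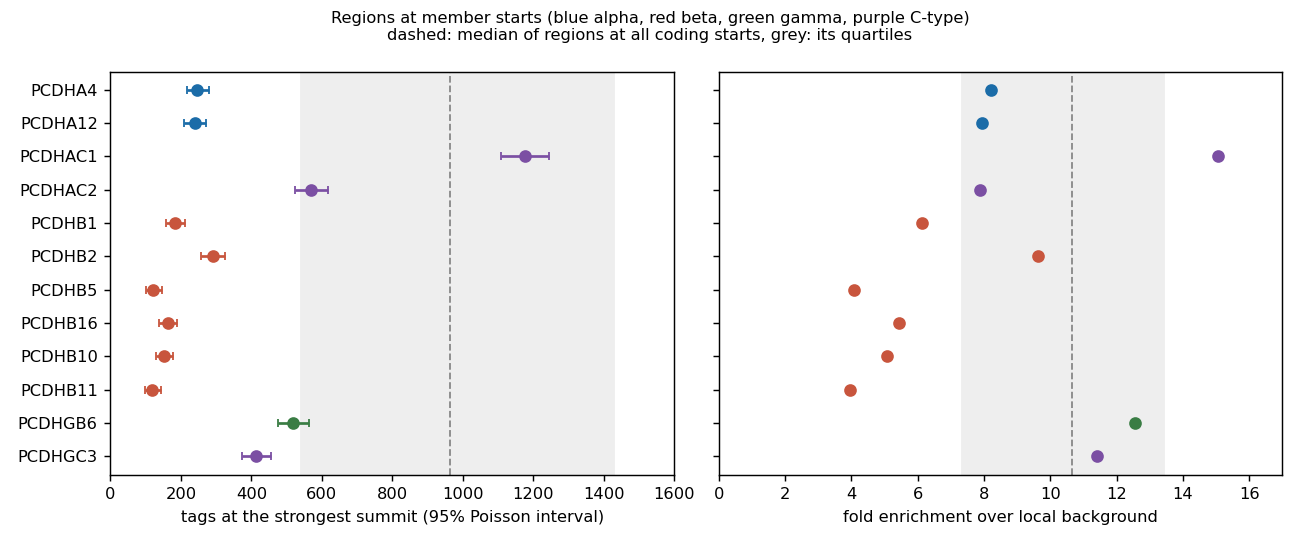
Tags at the strongest summit with 95% Poisson intervals (left) and fold enrichment (right) for the 12 listed members in chromosomal order, coloured by group. The dashed line and grey band give the median and quartiles over regions at all coding starts. PCDHAC1 is the only member right of the dashed line on the left, and the beta members other than PCDHB2 lie left of the grey band in both panels.

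Summits sat on the annotated starts. The strongest summit was within 100 bp of the start in 10 of the 12 members, between 67 bp before it and 28 bp after it. The exceptions were PCDHAC1 and PCDHAC2, whose strongest summits were 318 and 241 bp after the start, with further summits 19 bp after it in PCDHAC1 and at -25 bp in PCDHAC2. The share of all coding starts with a strongest summit within 100 bp was not computed. Regions were 647 to 1566 bp wide with a median of 1132 bp, and the 3 C-type regions, 1444 to 1566 bp, were wider than all 9 others. Because ATAC-seq has no strand, the region at PCDHA12 cannot be separated from the non-coding gene LOC112267934 that overlaps it, nor that at PCDHB1 from the antisense gene PCDHB1-AS1. The 2 cases differ in position. The PCDHA12 summit lay 606 bp from the nearest end of LOC112267934. The PCDHB1 summit lay 5197 bp from the nearest end of PCDHB1-AS1 and 28 bp after the PCDHB1 start.

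The regions had 2 to 4 summits each. In 8 of the 12 members a weaker summit lay 189 to 260 bp after the start, with 61 to 233 tags. The share of all coding starts with such a summit was not computed, so this count is not read as a trait of these members. PCDHA4 and PCDHA12 each had a further summit well inside the gene, at 588 bp with 226 tags (197 to 257) in PCDHA4 and at 604 bp with 146 tags (123 to 172) in PCDHA12. In PCDHA4 this inner summit overlaps the one at the start within counting error, and in PCDHA12 it does not. PCDHB2 and PCDHB5 also had inner summits, the last at 828 bp with 69 tags in PCDHB2 and at 831 bp with 74 tags in PCDHB5, and PCDHGC3 had a pair, at 434 bp with 113 tags and at 701 bp with 72. PCDHAC2 had one at 843 bp with 156 tags (132 to 182), above all the inner summits named here except that of PCDHA4. Its interval overlaps that of the inner summit of PCDHA12. Its fold enrichment, 2.16, was below those of the other inner summits named here except the 1.98 at 701 bp in PCDHGC3.

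**Figure D4:**
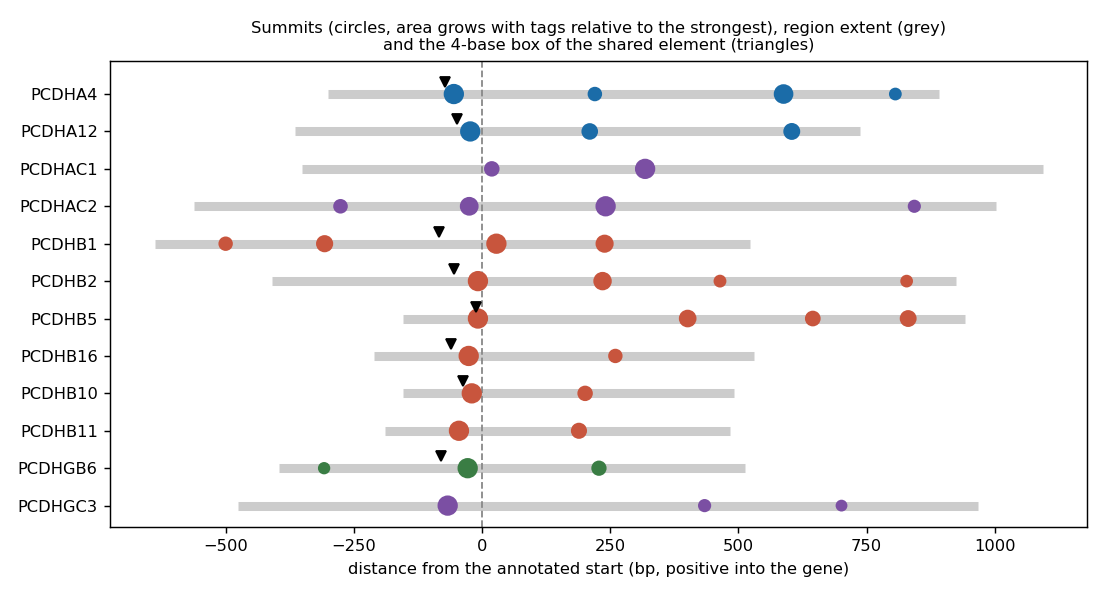
Position of every summit in the 12 listed regions relative to the annotated start (bp, positive into the gene), with circle area growing with tags relative to the strongest summit of that region. Grey bars are the regions and triangles the box of the shared element where an entry exists, outside the C-type members. At PCDHB1 the triangle marks a CGCT without the core of the beta group. Strongest summits fall within 67 bp of the start except in PCDHAC1 and PCDHAC2.

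Words linked to CTCF were searched on both strands in the 47 promoters. The box CGCT was present in 46 of 47 (97.9%), the exception being PCDHA9, and in 69.3% of all promoters, so the bare word separates little. The longer GGCGCT, which contains CGCT, was in 13 of 14 beta promoters, 7 of 18 gamma A and B promoters, 2 of 4 C-type promoters and 0 of 11 alpha promoters, against 21.5% of all promoters. A strict and a loose form of the CTCF core, where every strict match is also a loose one, were each found in 1 of 47, PCDHB9, against 2.5% and 10.7% of all promoters. The proneural E-box CAGATG was in 7 of 47 (14.9%, all promoters 14.8%) and TATAAA in 6 of 47 (12.8%, all promoters 12.02%). A match is a description of the letters in this window and not a binding site.

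Around the box the members of a group share a longer element, shown here for listed members and for unlisted neighbours in the same group. Each line has 28 bases, with 16 before the box and 8 after it, and capitals mark the box. Listed alpha members come first.
PCDHA4: tggagccacatgatgtCGCTctttacca
PCDHA12: atcagtcacatgatgtCGCTctacactc
The next lines are alpha members with no region at their start.
PCDHA2: tttagccacatgatgtCGCTgtccacca
PCDHA5: ttcatccacatgatgtCGCTggacaccg
PCDHA8: tgaagccacatgatgtCGCTgtctacca
PCDHA11: tttaggcgcaaggtgtCGCTctttactt
Beta members with a region were these.
PCDHB1: gactggggagttgagtCGCTcaatgcaa
PCDHB2: aagagacgcggggtggCGCTgcagcctt
PCDHB5: ttaggacgcctggtggCGCTgcaggcta
PCDHB16: tgagaacgcgtggtggCGCTgcaggtta
PCDHB10: ggaggccacacggtggCGCTgcaggcta
Beta members without one are given for comparison.
PCDHB3: agcgaacgcatggtggCGCTgttgacta
PCDHB9: ggaagccacaaggtggCGCTgcagactg
PCDHB13: tgaggacgcgtggtggCGCTgcaggata
PCDHB15: agacaacgcatggtggCGCTgcaggcta
The gamma lines are the listed PCDHGB6, its unlisted gamma A neighbours PCDHGA9 and PCDHGA10, and the unlisted PCDHGA2, which lies farther away and is the most typical copy of the group.
PCDHGB6: cggagcctctgggcgcCGCTgtcggcca
PCDHGA9: ttaggactctgagcgcCGCTgttgatca
PCDHGA10: ttaggactctgagcgcCGCTgttcacct
PCDHGA2: ttaggcctctgagcgtCGCTgttgacca

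Listed members did not stand apart by how closely their element matched its group, apart from PCDHB1. Likeness is the number of the 28 bases identical to the copy closest on average to the rest of the group, PCDHA2, PCDHB13 and PCDHGA2. It was 23 at PCDHA4 and 21 at PCDHA12, within the 19 to 28 of the 8 unlisted alpha members. Among beta members it was 20, 25, 26 and 22 at PCDHB2, PCDHB5, PCDHB16 and PCDHB10, within the 19 to 28 of the 9 unlisted ones, and 13 at PCDHB1, which lacks the group's core. PCDHGB6 had 20, within the 8 to 28 of the 17 unlisted gamma members. The 8 belongs to PCDHGB7, whose stretch matches the bases around the second CGCT of PCDHGB6 and not its element. The next lowest was 15 at PCDHGB3. These counts are descriptive, since the copies within a group share ancestry.

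Each group had a core of its own, chosen after the sequences had been seen. ATGTCGCT was in 9 of 11 alpha promoters, including the listed PCDHA4 and PCDHA12, and in no other member, against 0.249% of all promoters. GGTGGCGCT was in 13 of 14 beta promoters, all but PCDHB1, against 0.524% of all promoters. GCGNCGCT was in 13 of 18 gamma A and B promoters, against 7.41% of all promoters. Where a listed alpha, beta or gamma member other than PCDHB1 had an element, its strongest summit lay 3 to 53 bp downstream of the first base of the box. The distance was 18 bp in PCDHA4, 25 bp in PCDHA12, 47 bp in PCDHB2, 35 bp in PCDHB16, 18 bp in PCDHB10, 53 bp in PCDHGB6 and 3 bp in PCDHB5. In PCDHB1 it was 112 bp, but the box taken there is 1 of several CGCT words in a promoter without the core.

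**Figure D5:**
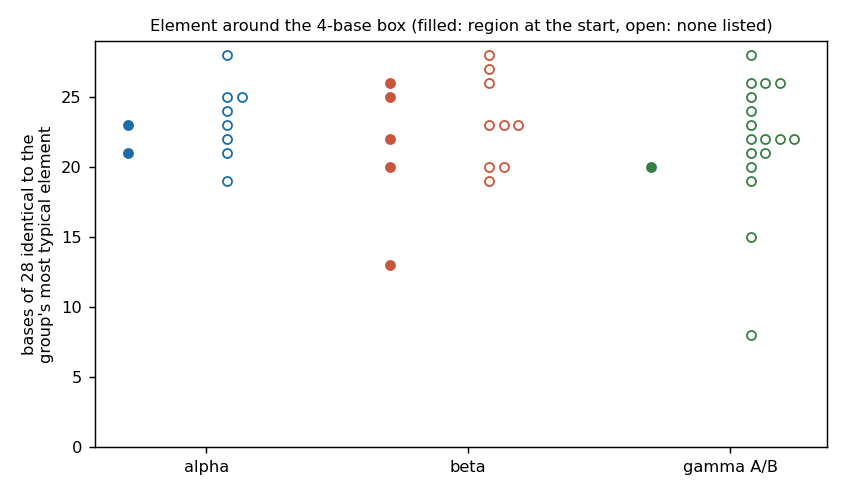
Number of the 28 element bases identical to the most typical copy of the group, for alpha, beta and gamma A and B members with a promoter entry. Filled circles are members with a region at the start and open circles members without one, and the filled circles other than PCDHB1, at 13, fall inside the span of the open ones.

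Members whose promoters share long runs of bases were looked at because reads from such stretches can be lost or misplaced. The longest run of bases shared with another member's promoter had a median of 18 bp over the 47 members. It was 78 bp for PCDHGB4 and PCDHGB5, 55 bp for PCDHB8 and PCDHB13, and 38 bp for PCDHGB6 and PCDHGB7. Of these 6 members only PCDHGB6 was listed. The 41 other members shared runs under 36 bp with any other member, and 10 of the 11 listed members with an entry were among them. Runs of at least 36 bp were thus found in 1 of the 11 listed members and in 5 of the 36 unlisted ones. How the authors treated reads with several matches is not given in the sources used here, and its part in these counts was not tested.

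The other 20 regions of the window lay at no member start, and the one with the most tags in the whole window was among them. It spanned chr5:141039617-141041487, between the end of the alpha group and PCDHB1, with its summit 28.9 kb after the alpha end and 10.1 kb before the PCDHB1 start. It held 1493 tags (1418 to 1570.7) at a fold enrichment of 14.5, 5 summits and a width of 1871 bp, and stood at percentile 95.5 of all regions by tags. By fold enrichment it was below the regions at HARS1 (15.7), PCDHAC1 (15.04) and TAF7 (14.97). Its interval is above that of PCDHAC1. Enhancers of the cluster are known to lie in and beyond the alpha constant exons and beyond the gamma group, but no file used here marks them, so regions are given by position.

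The constant parts, from the last variable exon of a group to its shared end, held 5 regions. In the alpha group all 3 lay inside the entry that RefSeq gives for the shared exons. The one with the most tags, chr5:141001387-141002788, had 902 tags (844 to 963) at a fold enrichment of 10.7, with its summit 10.0 kb before the alpha end. The others were chr5:140985540-140986776 with 221 tags (193 to 252) and chr5:140995754-140996533 with 110 (90.4 to 133), the fewest of the window. In the gamma group chr5:141493853-141495471 had 254 tags (224 to 287) and chr5:141508064-141509418 had 463 (422 to 507). Their fold enrichments were low, 4.46 and 3.51. The 3 alpha regions thus spanned 110 to 902 tags, a range that takes in every listed alpha and beta start.

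Spaces between the groups held the region with the most tags and a pair between beta and gamma. The region chr5:141249921-141251315, 1.36 kb past the end of PCDHB15, had 374 tags (337 to 414) at a fold enrichment of 10.7 and lay at no annotated start of another gene. The region chr5:141320174-141321386 lay 29 bp from an end of TAF7, the gene of a subunit of the general transcription machinery, and had 937 tags (878 to 999). Within the beta group a small region between PCDHB1 and PCDHB2, chr5:141084484-141085020, had 144 tags (121 to 169.5).

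The flanks carried 4 regions before the alpha group and 7 after the gamma group. Before it, the regions sat at an end of HARS1 with 1011 tags, ZMAT2 with 850.0, VTRNA1-1 with 279 and VTRNA1-3 with 210, genes for a histidine tRNA synthetase, a zinc finger protein and the last 2 for small vault RNAs. After it, the region closest to the shared end, chr5:141513046-141514613, had 1021 tags (959 to 1086) at 1.11 kb past that end and 940 bp short of DIAPH1, an actin regulator. The other 6 lay inside DIAPH1 and ranged from 157 to 797 tags. The 5 regions with the most tags outside member starts were thus the one between alpha and beta, that beside DIAPH1, and those at HARS1, TAF7 and the alpha constant part.

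Per length, regions were unevenly spread within the groups. The gamma group held 4 regions over 182.5 kb, or 2.19 per 100 kb, the alpha group 7 over 226 kb, or 3.09, and the beta group 7 over 198 kb, or 3.54. Within the alpha group the stretch from the PCDHA1 start to the PCDHAC2 start had 1.66 per 100 kb, and the stretch from there to the alpha end, which takes in the PCDHAC2 region, had 8.72. The stretch from the PCDHGC5 start to the gamma end had 8.37 per 100 kb, from 2 regions over 23.9 kb. The flank before alpha had 4 per 100 kb and the flank after gamma 7 per 100 kb. Chromosome 5 as a whole, between its first and last region, had 2.20 per 100 kb.

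Genes known to act with the clustered protocadherins, and the non-clustered protocadherins, had open starts with few exceptions. A start was available for 12 of 15 regulators, 9 of 11 cytoplasmic partners and 10 of 12 non-clustered protocadherins. Of the regulators of the cluster with a start in the table, 12 of 12 had a region, including CTCF with 1342 tags, SMC3 of the cohesin ring with 1974, the cohesin unloader WAPL with 2030, the repressor SMCHD1 with 1394, the de novo DNA methyltransferase DNMT3B with 574 and REST, a repressor of neuronal genes, with 1034. Cytoplasmic partners had 9 of 9, with a median of 1318 tags, among them the kinase FYN with 2511 and WASF1 of the actin-regulating WAVE complex with 2514. The non-clustered protocadherins had 9 of 10, with 546 tags at PCDH19 to 2513 at PCDH9, and PCDH12 was the exception. The background share is the 72.4% given above, and many of these genes are active in most cells.

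Markers of cell identity were checked in the same way. A region lay at the start of 5 of 5 pan-neuronal genes in the table, MAP2, RBFOX3, TUBB3, SYT1 and DCX. It was found for 1 of 2 glutamatergic genes (SLC17A6 but not SLC17A7), 3 of 3 GABAergic genes, 3 of 3 progenitor genes and 2 of 2 glial genes. It was absent at NANOG, the only pluripotency gene with a start in the table, and at 2 of 2 non-neural genes. The share over all coding genes, 72.4%, stands beside these counts, which rest on 1 to 5 genes a list. The glial pair had 160.0 tags at AQP4 and 158 at MBP. That is close to the 159 at the pan-neuronal gene RBFOX3 and above the 139 at the GABAergic gene SLC32A1. It is below the other GABAergic starts, GAD1 with 232 and GAD2 with 424, and below SLC17A6 with 227. The progenitor starts held 339 tags at PAX6, 775 at NES and 856 at SOX2. The other pan-neuronal starts ranged from 252 tags at DCX to 1315 at TUBB3. The part of other cell types in the protocadherin pattern was not tested.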

How the data were processed

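ATAC-seq was measured in 3 samples of 1 group, and the authors deposited 1 peak list for them, labelled IDR-optimal. The build is hg38 per the submitters' processing notes. The aligner, caller and filters are not given in the sources used here. The deposited fold enrichment of each summit is a linear ratio over background, from 1.29 to 31.9. The −log10 p and −log10 q were deposited per summit, and the score is the authors' whole number from 540 to 1000. The list holds no sample depth.

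Entries with equal bounds were merged, from 145092 to 65234 regions. Tags were recovered as the whole count that reproduces ratio and p under a Poisson tail with a pseudocount, to within 0.00079 of −log10 p, and 100% of simulated counts were recovered. Starts came from RefSeq promoters for 47 of the 53 coding members and otherwise from the lower-coordinate end. Named were all listed and all C-type members, the 3 highest and lowest by tags per group, constant-part regions and the 5 strongest others. Members and lists were chosen with earlier results of these data known. Alternatives were other windows, overlap, any summit, score, fold, ends, entries and flanks. Python 3.11.15, numpy 2.4.6, scipy 1.17.1, pandas 2.3.3 and matplotlib 3.10.9 were used.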

Additional observations from a re-analysis of the deposited data

How the results depend on the processing

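Of 62 recomputed values for 19 results, 56 stayed within their limit, 1.5 times for a count and the counting interval otherwise, and 6 moved. The falls from 12 to 8 listed members and from 6 to 4 in the beta group sat at the limit and counted as within it. The values are not independent, since several settings gave the same members. The same 12 members were listed with windows of 500 bp and 2 kb, with any overlap and with any summit. PCDHB9 was added when either gene end counted, through the region already counted at the PCDHB10 start. PCDHB11 and PCDHB16 were lost at a score of at least 830. Above the median fold enrichment PCDHB5, PCDHB10, PCDHB11 and PCDHB16 were lost, which left 2 of 6 beta members. The 32 regions became 82 as entries and 21 without flanks. With all entries the median at member starts fell from 243 to 138 tags and from 7.91 to 4.07 in fold enrichment, since weaker summits enter. The E-box share became 6.38% before the start only, against 12.3% of all promoters in that window. No paired analysis was possible because all 3 samples belong to 1 group and were pooled into a single list, so no replicate could be left out.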
